A study of Homo sapiens with 6 samples.

Results

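E2F1, E2F2, E2F7, E2F8, RB1, RBL1, RBL2, FOXM1, MYBL2 and LIN9 are transcriptional regulators of the cell cycle. These 10 genes were chosen by symbol, and each matched 1 of the 58735 genes in the expression table. They were compared by RNA-seq between PC9-BrM3 cells in which AKR1B10, an aldo-keto reductase, was silenced (BrM3-shAKR1B10, genotype given as AKR1B10 knockdown) and cells with the negative control hairpin (BrM3-shNC, genotype given as WT), with 3 libraries per group. PC9-BrM3 is a subline of PC9, an established line of human lung adenocarcinoma, that was selected for growth in the brain through repeated injection of cells into the left ventricle of immunodeficient mice. Both groups carried a lentiviral LV2 vector and were in routine culture, and no drug is named in the labels. The study's legends define shAKR1B10 as cells with its shRNA vector 1, so these data stand for 1 hairpin and 1 silenced line against 1 control line. The labels do not say whether the libraries came from separate cultures. The p-values then measure the spread between these libraries, which may be technical.

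E2F proteins bind DNA next to genes needed for DNA replication. E2F1 and E2F2 are activators that pair with a DP protein and are held inactive by the pocket protein RB1, whereas E2F7 and E2F8 bind without DP and repress the same kind of promoter. The other pocket proteins, RBL1 (p107) and RBL2 (p130), join the MuvB core, of which LIN9 is a subunit, with E2F4 and DP to form the DREAM repressor of resting cells. In cycling cells MuvB leaves the pocket protein, takes up MYBL2 (B-MYB) in S phase and then FOXM1, and activates genes of G2 and mitosis through the cell cycle homology region (CHR) of their promoters. Cyclin-dependent kinases phosphorylate the pocket proteins and release E2F. Several of these regulators, among them E2F1, MYBL2 and RBL1, are themselves known as E2F targets.

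RefSeq promoter windows (GRCh38.p14, 250 bases before to 50 after a start) were at hand for 8 of the 10 genes, all but E2F8 and FOXM1. Each window was searched on both strands for 4 E2F words, TTTCCCGC, TTTCGCGC, TTTGCCGC and TTTGGCGC, and for 2 CHR words, TTTGAA and TTCGAA. The 2 sets share no word. The stretches that hold a match are shown so that the letters can be read beside the values. Words are in capitals, 5′ to 3′ on the strand of the gene.
E2F1, chr20:33686387-33686429, minus strand: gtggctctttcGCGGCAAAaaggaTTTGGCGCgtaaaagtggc
E2F2, chr1:23531257-23531286, minus strand: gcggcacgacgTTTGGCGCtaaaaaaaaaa
RBL1, chr20:37096005-37096034, minus strand: cagctgcagatTTTCGCGCgcTTTGGCGCa
RBL2, chr16:53434483-53434512, plus strand: ggcgcttcgccgTTTGAAtggctgcgggcc
LIN9, chr1:226309207-226309236, minus strand: gcgagctccgcaTTCGAAcctccctcgcaa
LIN9, chr1:226309150-226309179, minus strand: cggcgggcagccTTTGAAaaagcggcgcgg

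E2F1 and RBL1 each held 2 E2F words and E2F2 held 1, between 16 and 42 bases before the start. The CHR word of RBL2 lay 24 bases after the start, and LIN9 held its 2 CHR words in 1 of its 3 windows, 60 and 3 bases before that start. No listed word was present in the windows of MYBL2, E2F7 and RB1. The RB1 window is that of an internal start, 172724 bases from the start of the gene in GENCODE 29. An E2F word thus stood in 3 of the 11 member windows (27.3%), beside 3.31% of all 35116 windows, and a CHR word in 2 of the 11 (18.2%), beside 16.4% of all windows, so the CHR share of the members was near that of all promoters. A match is a description of the letters and not a bound site.

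Levels are given as FPKM (fragments per kilobase of gene length, scaled to the library size), the deposited unit. The 6 libraries held 16964504 to 18709028 reads on genes. Replicate libraries differed by a chi-square per gene of 2.64 to 2.92, except that BrM3-shNC library 1 stood apart from the other controls at 5.57 and 6.24. AKR1B10 itself fell from 782 ± 14.6 FPKM in BrM3-shNC to 109 ± 1.52 in BrM3-shAKR1B10 (SD, n = 3), 13.9% of control. All 8 markers of lung adenocarcinoma epithelium reached 1 FPKM, with KRT19 up to 974 FPKM. Of the fibroblast markers 1 of 7 reached 1 FPKM and 4 were at 0 in all libraries, with a summed level of 1.20 to 1.37 FPKM in BrM3-shAKR1B10 and 2.03 to 2.08 in BrM3-shNC. Of the blood and endothelial markers 2 of 7 reached 1 FPKM (sums of 3.23 to 3.56 against 2.76 to 3.14), and of the neural and glial markers 1 of 6 did (2.53 to 2.70 against 3.44 to 3.57). The part of these small sums in the results below was not tested.

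Silencing of AKR1B10 came with lower RNA of the MuvB-bound activators MYBL2 and FOXM1, of the MuvB subunit LIN9, of the repressor E2F8 and of the pocket protein RBL1. The activators E2F1 and E2F2 and the pocket proteins RB1 and RBL2 were not called, and E2F7 was barely expressed. Of the 10 genes, 9 reached a mean of 1 FPKM and were tested with limma on log2(FPKM + 0.1) together with all 13150 genes that did. A gene was called at a Benjamini-Hochberg adjusted p under 0.05 and a log2 fold change beyond 0.5 in either direction. By this rule silencing lowered 5 of the 9 and raised 0, beside 7.45% of all genes tested called lower and 5.83% called higher. The genes and the lists below were chosen with earlier results of these data known, so such counts are a description. The count was also 5 without BrM3-shNC library 1. No member rose at an unadjusted p under 0.05 or by voom on recovered reads either. The fold changes of all 9 were below 0, with a median of -0.59 against -0.01 over all genes tested. In bulk RNA, a lower level per cell and a smaller share of cells in the phase that uses a gene cannot be told apart.

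MYBL2 (ENSG00000101057, chromosome 20, 43667019 to 43716496, plus strand) was the most abundant of the 10 and had the largest change. Its levels were 99.8, 104 and 105 FPKM in BrM3-shNC and 41.5, 44.5 and 44.2 in BrM3-shAKR1B10. The silenced mean was 42.2% of the control mean, and no silenced library came near the lowest control library. The log2 fold change was -1.24 ± 0.0390 (SE, limma adjusted p = 9.9e-06), and 4892 to 5303 reads per control library and 2038 to 2233 per silenced library stood behind it.

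FOXM1 (ENSG00000111206, chromosome 12, 2857681 to 2877155, minus strand), the forkhead factor that joins MYBL2 and MuvB on G2 and mitotic genes, stood at 18.6, 18.9 and 20.2 FPKM in BrM3-shNC. In BrM3-shAKR1B10 it stood at 10.1, 10.7 and 11.2 FPKM, so that the groups did not overlap. The log2 fold change was -0.84 ± 0.0531 (SE, limma adjusted p = 7.0e-05), or 55.5% of control. FOXM1 shares 781 exonic bases with ITFG2 on the opposite strand, whose log2 fold change was 0.06 (limma adjusted p = 0.496). Strand use in the counting is not given in the sources used here, so reads from these bases cannot be told apart.

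LIN9 (ENSG00000183814, chromosome 1, 226231149 to 226309869, minus strand) had 7.88, 8.12 and 7.27 FPKM in BrM3-shNC and 4.33, 4.30 and 4.68 in BrM3-shAKR1B10. Its level fell to 57.3% of control, with a log2 fold change of -0.79 ± 0.0606 (SE, limma adjusted p = 1.5e-04). Again no silenced library reached the lowest control library.

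**Figure D1:**
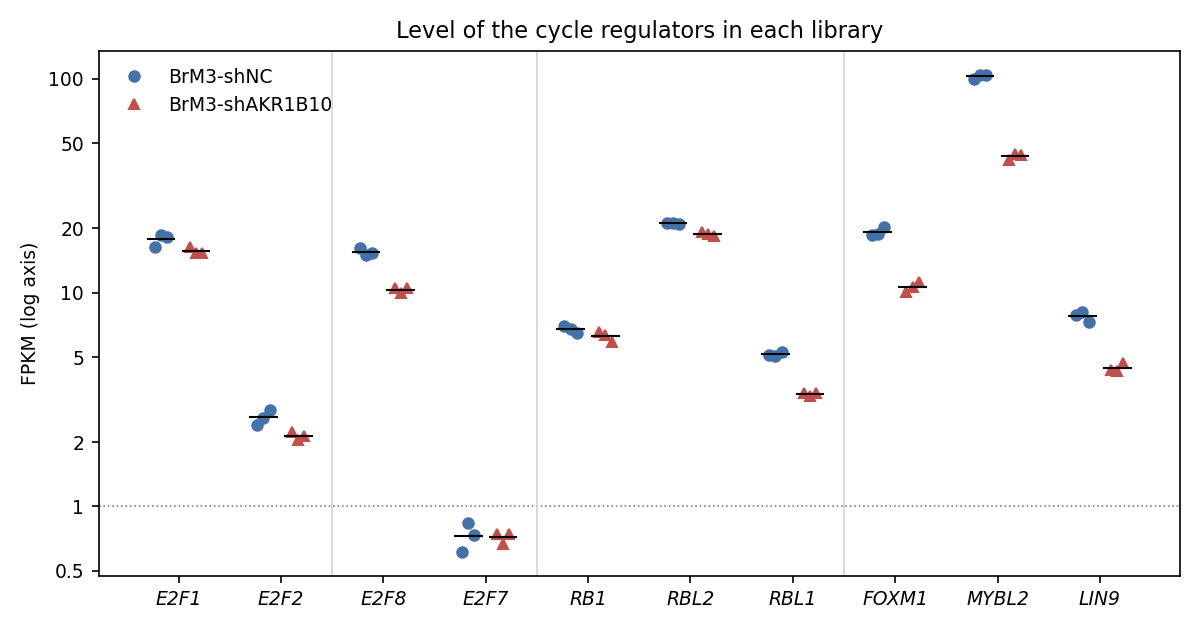
FPKM of the 10 regulators on a log axis, in 3 BrM3-shNC libraries (circles) and 3 BrM3-shAKR1B10 libraries (triangles), with bars at the group means and a dotted line at the limit of 1 FPKM for testing. MYBL2, FOXM1, LIN9, E2F8 and RBL1 separate clearly, whereas RB1 and E2F7 overlap.

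Among the E2F genes, the repressor E2F8 changed most. E2F8 (ENSG00000129173, chromosome 11, 19224063 to 19241620, minus strand) was at 16.2, 15.1 and 15.4 FPKM in BrM3-shNC and at 10.5, 9.94 and 10.5 in BrM3-shAKR1B10. The log2 fold change was -0.59 ± 0.0433 (SE, limma adjusted p = 1.3e-04), with a 95% interval of -0.69 to -0.49 whose upper end lies just inside the fold threshold.

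E2F1 (ENSG00000101412, chromosome 20, 33675683 to 33686404, minus strand), the activator best known for driving entry into S phase, was at 16.4, 18.6 and 18.3 FPKM in BrM3-shNC. In BrM3-shAKR1B10 it was at 16.4, 15.3 and 15.3 FPKM, so the highest silenced and the lowest control library met at 16.4. The log2 fold change of -0.18 ± 0.0580 (SE, limma adjusted p = 0.0483) did not reach the fold threshold. E2F2 (ENSG00000007968, chromosome 1, 23506430 to 23531220, minus strand) had 2.42, 2.59 and 2.83 FPKM in BrM3-shNC and 2.23, 2.05 and 2.14 in BrM3-shAKR1B10, a log2 fold change of -0.27 (limma adjusted p = 0.0404), also not called. For both genes the adjusted p rested on the fit. It was under 0.05 in 5 of 16 refits for E2F1 and in 6 of 15 for E2F2, and over the refits that left out a library it reached 0.136 and 0.121.

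E2F7 (ENSG00000165891, chromosome 12, 77021247 to 77065580, minus strand), the partner repressor of E2F8, had 0.614, 0.835 and 0.739 FPKM in BrM3-shNC and 0.745, 0.668 and 0.743 in BrM3-shAKR1B10, from 71 to 89 reads a library. The groups overlap, and the gene lay below the limit for testing. In the fit without that limit its log2 fold change was -0.01 with a 95% interval of -0.46 to 0.43, so a change of the size seen for E2F8 is outside that interval.

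Of the pocket proteins only RBL1 was called. RBL1 (ENSG00000080839, chromosome 20, 36996349 to 37095995, minus strand) was at 5.11, 5.06 and 5.26 FPKM in BrM3-shNC and at 3.39, 3.27 and 3.38 in BrM3-shAKR1B10, a log2 fold change of -0.60 ± 0.0478 (SE, limma adjusted p = 1.7e-04). With a pseudocount of 1 in place of 0.1 the RBL1 value was -0.50, just inside the fold threshold. RBL2 (ENSG00000103479, chromosome 16, 53433977 to 53491649, plus strand), the pocket protein of resting cells, was at 21.1, 21.2 and 21.0 FPKM in BrM3-shNC and at 19.1, 18.9 and 18.4 in BrM3-shAKR1B10. The RBL2 groups did not overlap, but its log2 fold change was only -0.16 ± 0.0310 (SE, limma adjusted p = 0.0064), inside the fold threshold. RB1 (ENSG00000139687, chromosome 13, 48303726 to 48599436, plus strand), the retinoblastoma protein, was at 6.98, 6.77 and 6.49 FPKM in BrM3-shNC and at 6.52, 6.35 and 5.89 in BrM3-shAKR1B10. Its groups overlapped, and the log2 fold change of -0.11 had a 95% interval of -0.24 to 0.02 (limma adjusted p = 0.156). The RB1 value was -0.07 without BrM3-shAKR1B10 replicate 3 and -0.06 by voom on recovered reads.

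RBL2 shares 610 exonic bases with AKTIP on the opposite strand, which was higher in BrM3-shAKR1B10, at 7.66 ± 0.407 against 5.33 ± 0.175 FPKM (SD, n = 3) with a log2 fold change of 0.52. AKTIP lay inside the threshold, and so was not called, at 0.49 without BrM3-shAKR1B10 replicate 2 or 3 or BrM3-shNC replicate 2, and at 0.45 with a pseudocount of 1. The part of these shared reads in the RBL2 value was not tested. RBL1 and E2F8 share 211 and 7 exonic bases with antisense genes of at most 20 reads a library.

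**Figure D2:**
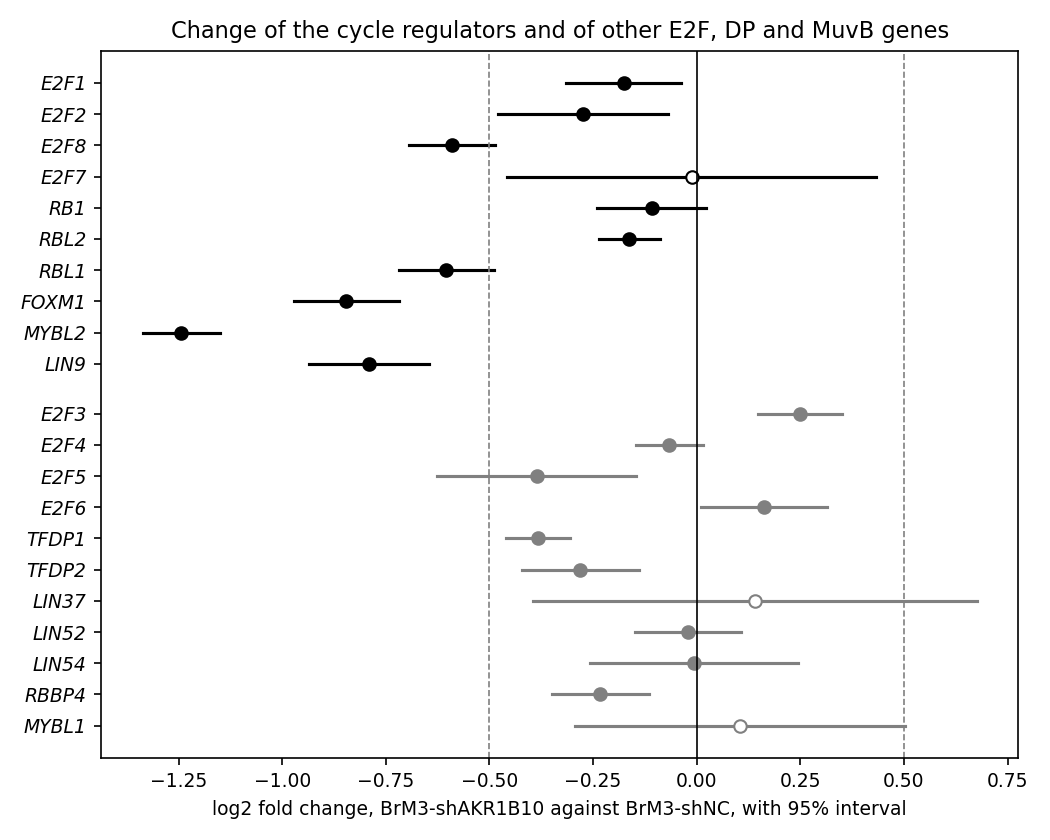
Log2 fold change of BrM3-shAKR1B10 against BrM3-shNC with its 95% interval from limma, for the 10 regulators (black) and for other E2F, DP and MuvB genes (grey). Dashed lines mark the fold threshold of 0.5 and open circles genes below 1 FPKM, taken from the fit without that limit. MYBL2 at -1.24 lies farthest left, and the points of the other E2F, DP and MuvB genes all lie inside the threshold.

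With the fold threshold set aside, 8 of the 9 tested regulators had an adjusted p under 0.05 in the lower direction, RB1 being the exception, beside 23.1% of all genes tested. In the same 8 no silenced library exceeded a control library, beside 29.2% of all genes tested. For E2F1 this rested on 16.415 FPKM in BrM3-shAKR1B10 library 1 against 16.416 in BrM3-shNC library 1. Its separation thus depended on the scaling between libraries. E2F1, RBL1 and MYBL2 lie on chromosome 20, where 28 of 386 genes tested were called lower with the fold threshold (7.25%, near the 7.45% of all genes tested).

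The order of levels, which are scaled for gene length, shifted with silencing. In BrM3-shNC it ran MYBL2, RBL2, FOXM1, E2F1, E2F8, LIN9, RB1, RBL1, E2F2 and E2F7. FOXM1 and E2F1 overlapped there, and all other neighbours in the order were apart in every library. In BrM3-shAKR1B10 it ran MYBL2, RBL2, E2F1, FOXM1, E2F8, RB1, LIN9, RBL1, E2F2 and E2F7, and only FOXM1 and E2F8 overlapped. FOXM1 thus stood below E2F1, and LIN9 below RB1, in the silenced libraries. Among the 800 tested genes to which the table gives a transcription factor family, MYBL2 ranked 8 by level in BrM3-shNC and 21 in BrM3-shAKR1B10. FOXM1 went from rank 105 to 194 and E2F8 from 129 to 204, whereas E2F1 stayed near its place at 113 and 118. E2F2, like E2F1 not called, went from rank 583 to 629. By log2 fold change, MYBL2 ranked 3 from the lowest of these 800 genes, FOXM1 17 and E2F8 50. Of the 800, 9.0% were called lower and 3.5% higher.

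Ratios between members within each library remove the scaling between libraries. The share of the repressors E2F7 and E2F8 in the summed FPKM of E2F1, E2F2, E2F7 and E2F8 was 47.2%, 42.9% and 43.2% in BrM3-shNC and 37.5%, 37.9% and 39.1% in BrM3-shAKR1B10. All silenced libraries lay below all control libraries, with a difference of -6.27 percentage points (two-sided exact permutation test, p = 0.10, the smallest that 3 against 3 allows). The difference was that of E2F8, whose mean share was 42.5% in BrM3-shNC and 35.7% in BrM3-shAKR1B10, while that of E2F7 was 1.99% and 2.49%. Control library 1 was the highest, and without it the difference was -4.91 points. The share of RBL1 in the summed FPKM of RB1, RBL1 and RBL2 was 15.4%, 15.3% and 16.1% in BrM3-shNC and 11.7%, 11.5% and 12.2% in BrM3-shAKR1B10. That difference was -3.81 points, again without overlap (two-sided exact permutation test, p = 0.10).

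**Figure D3:**
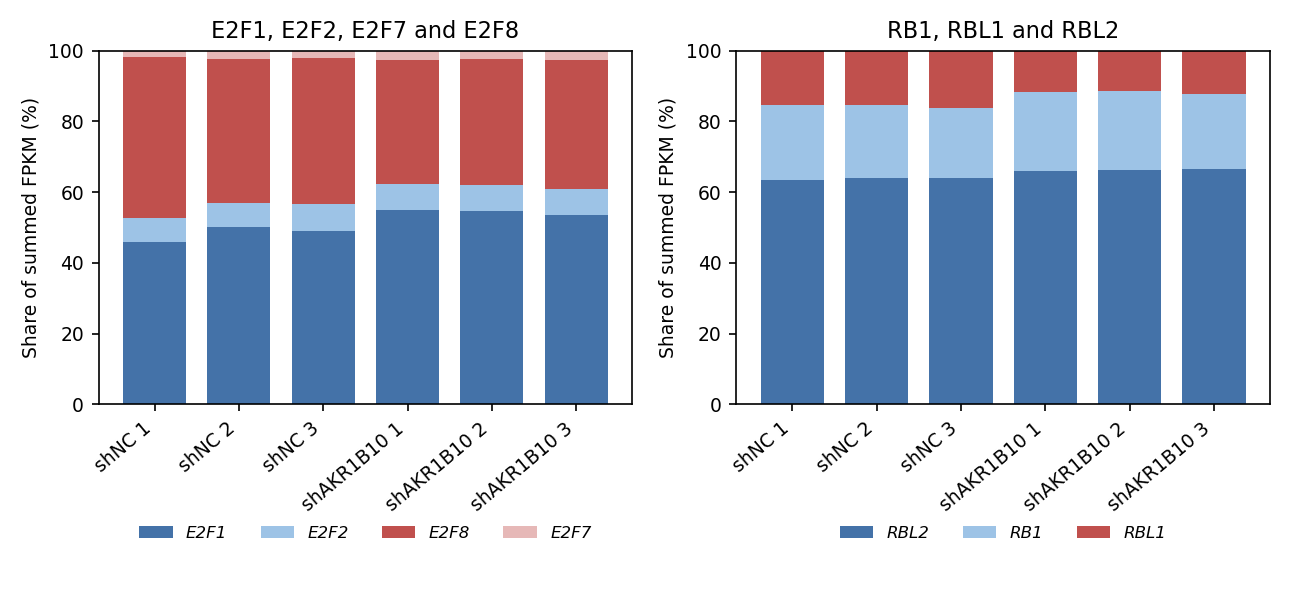
Share of each gene in the summed FPKM of its family, in percent, for each of the 6 libraries, with the E2F genes on the left and the pocket proteins on the right. The E2F8 segment shrinks from 40.7 to 45.4% in the controls to 35.0 to 36.5% in the silenced libraries, and the RBL1 segment from 15.3 to 16.1% to 11.5 to 12.2%.

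A further 6 ratios within each library, on the log2 scale, restate the fold changes above as differences between members and are given as a description. E2F8 against E2F1 moved by -0.42 and FOXM1 against E2F1 by -0.67. MYBL2 moved by -0.39 against FOXM1 and by -0.44 against LIN9, its partners on MuvB. RBL1 moved by -0.45 against RBL2 and by -0.51 against RB1.

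The other E2F, DP and MuvB genes were a list of 12, of which 9 were tested. Of these, 0 were called in either direction by limma or by voom. Over all genes tested, limma called 7.45% lower and 5.83% higher. At an unadjusted p under 0.05, 4 were lower and 2 higher, where 27.3% of all genes tested were lower and 23.8% higher, and the median log2 fold change was -0.07, with -0.09 to -0.02 over the refits. The activator E2F3 stood at 10.8 ± 0.314 FPKM in BrM3-shAKR1B10 against 9.04 ± 0.279 in BrM3-shNC (SD, n = 3). Its log2 fold change was 0.25 (limma adjusted p = 0.0041), where E2F1 and E2F2 had values below 0. TFDP1, the main DP partner of E2F, stood at 50.8 ± 1.38 against 66.2 ± 1.10 FPKM (SD, n = 3), a log2 fold change of -0.38 (limma adjusted p = 2.3e-04), and TFDP2 had -0.28. E2F4, the E2F of DREAM, had a log2 fold change of -0.07 and the repressors E2F5 and E2F6 had -0.39 and 0.16. The MuvB subunits RBBP4, LIN52 and LIN54 had -0.23, -0.02 and -0.01, so LIN9 was the only one of the 4 tested MuvB subunits that was called. LIN37 and MYBL1 stayed below 1 FPKM in every library, and TFDP3 was listed at 0 in all 6.

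A list of 17 genes held kinases and cyclins that act on the pocket proteins, their inhibitors, and SKP2 and CDC25A, which act further upstream. Of the 17, 15 were tested, 3 were lower and 2 were higher, beside 7.45% called lower and 5.83% called higher of all genes tested. CCND3 (cyclin D3) rose from 19.96 ± 0.744 to 38.1 ± 1.98 FPKM (SD, n = 3), a log2 fold change of 0.93. CDKN1A (p21), an inhibitor of cyclin-dependent kinases, rose from 8.42 ± 0.390 to 13.6 ± 0.404 FPKM (SD, n = 3), a log2 fold change of 0.68. The genes that fell act in both directions on the cycle. SKP2, which targets the inhibitor p27 for degradation, had a log2 fold change of -0.88, and the CDK4 and CDK6 inhibitors CDKN2C and CDKN2D had -0.76 and -0.81. CDKN2D lost its call without BrM3-shNC replicate 2 or 3, with limma adjusted p = 0.0680 and 0.0668, and with no filter on low values. CCND1 had a log2 fold change of 0.09 (limma adjusted p = 0.0567), CCNE1 -0.13 and CCNE2 -0.06, and CDK4, CDK6 and CDK2 had -0.24, -0.27 and -0.22, none of them called. CDKN1C was below the limit for testing, and CCND2 was listed at 0.

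The genes that these regulators act on were followed in a list of 48 G1/S genes known as E2F targets and a list of 48 G2/M genes known as targets of MuvB, MYBL2 and FOXM1. In the G1/S list 47 were tested, 23 were lower (48.9%, beside 7.45% of all genes tested), 0 were higher and all 47 had a fold change below 0, with a median of -0.48. Among the lowest were PRIM1, a subunit of the primase, at -1.06 and the thymidylate synthase TYMS at -0.91. CCNE1, CCNE2 and the phosphatase CDC25A, which stand in both this list and that of the kinases and inhibitors, were not called. CDC25A had 3.15 ± 0.0623 FPKM in BrM3-shAKR1B10 and 3.42 ± 0.215 in BrM3-shNC (SD, n = 3).

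In the G2/M list all 47 genes tested were called lower, beside 7.45% of all genes tested. The median log2 fold change was -1.11, beside -0.01 over all genes tested. Like the other lists, it was chosen with earlier results of these data known. DEPDC1 fell most, to 28.0% of control with a log2 fold change of -1.82. It was followed by the centromeric histone CENPA at -1.45 and the spindle factor HMMR at -1.36. The called genes with the smallest decrease were CCNF (cyclin F) at -0.58, CKS1B at -0.61 and the spindle protein TACC3 at -0.72. CCNB1 (cyclin B1) fell from 121 ± 2.20 to 51.8 ± 1.34 FPKM and CDK1, its kinase, from 72.0 ± 3.01 to 34.2 ± 2.08 (SD, n = 3). PRC1 lay between 0.215 and 0.483 FPKM and was not tested.

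The promoters of the 2 target lists held different words. An E2F word stood in 22 of 39 matched G1/S genes (56.4%) and in 3 of 43 matched G2/M genes, beside 3.99% of all 27305 genes with a window. A CHR word stood in 33 of the 43 G2/M genes (76.7%) and in 3 of the 39 G1/S genes, beside 19.5% of all genes. Genes were put in these lists for their known control, so the words are no independent evidence. Stretches of 5 targets are shown, with the word in capitals, to set the promoters of genes that fell beside that of CDC25A, which was not called.
HMMR, chr5:163460592-163460627, plus strand: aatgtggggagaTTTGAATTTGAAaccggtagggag
PLK1, chr16:23678848-23678877, plus strand: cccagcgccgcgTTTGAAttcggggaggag
DEPDC1, chr1:68497092-68497121, minus strand: ccctctatgctaTTCAAAtcggcggcgggg
MCM2, chr3:127598402-127598431, plus strand: cgtgaaccactTTTCGCGCGAAAcctggtt
CDC25A, chr3:48188443-48188472, minus strand: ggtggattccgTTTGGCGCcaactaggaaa

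HMMR held the CHR word in tandem, PLK1 held it 29 bases before the start, and DEPDC1 held it on the reverse strand. The mitotic kinase PLK1 fell with a log2 fold change of -1.14 and the replication helicase subunit MCM2 with -0.75. PLK1, MCM2 and CDC25A were picked for their sequences after their values had been seen.

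Of 22 p53 targets, a list in which CDKN1A also stands, 22 were tested, 4 were higher (18.2%, beside 5.83% of all genes tested) and 0 were lower, with a median log2 fold change of 0.14, or 0.09 to 0.20 over the refits. At an unadjusted p under 0.05, 9 were higher and 4 lower, beside 23.8% and 27.3% of all genes tested, and voom called 4 higher and 0 lower. TP53I3 rose to 7.14 ± 0.185 from 2.62 ± 0.130 FPKM (SD, n = 3), a log2 fold change of 1.41, and BTG2 and SESN1 had 0.71 and 0.60. With a pseudocount of 1 SESN1 had 0.49 and was not called, and at a mean of at least 5 FPKM 2 of these genes were called. MDM2, the p53 ligase, had a log2 fold change of -0.01.

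The genes whose profile over the 6 libraries was nearest to each regulator were found by the root mean square difference of the log2 values after centring each gene. The nearest to MYBL2 were the condensin subunit NCAPH (0.0355) and MTOR (0.0388). FOXM1 had ADGRE5 (0.0322) and the histone H2AFX (0.0326), and LIN9 had CDCA7 (0.0356) and PADI4 (0.0424). E2F8 and RBL1 shared NFYA, a subunit of the CCAAT-binding factor NF-Y, at 0.0224 and 0.0246, and had PTPN20 (0.0201) and ACTL6A (0.0153) as the others. NFYA itself had 13.2 FPKM in BrM3-shAKR1B10 and 19.95 in BrM3-shNC. E2F1 had GADD45GIP1 and GPAA1, E2F2 had PROCR and DDX43, RB1 had LPGAT1 and DCAF12, and RBL2 had IRS1 and GANAB, all within 0.0206. E2F7, at its low level, had TMUB1 and VWA1.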

How the data were processed

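Per the labels and the methods of the study, poly-T-selected RNA was sequenced, mapped with HISAT2 2.0.5 and counted with featureCounts 1.5.0-p3. The authors deposited FPKM per gene for 3 BrM3-shAKR1B10 and 3 BrM3-shNC libraries. All 58735 genes matched GENCODE 29 (GRCh38) in identifier, start, end and strand. Every value was a whole multiple of 1 read within a tolerance of 0.01, which gave 16964504 to 18709028 reads a library. The library size within the deposited FPKM was 101.9 to 102.4% of these reads in BrM3-shAKR1B10 and 98.1 to 99.7% in BrM3-shNC. This moves all fold changes by a small constant and was checked with TPM and voom. A count of 3 reads on 1000 bases equals 0.163 to 0.177 FPKM.

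Genes with a mean of at least 1 FPKM (13150) were tested on log2(FPKM + 0.1) with limma 3.58.1 (R 4.3.3, trended variance, Benjamini-Hochberg adjustment). Fold changes are on that scale. Shares and ratios were tested with an exact permutation test (scipy 1.17.1). The study's methods use a count test, but here FPKM was the deposited unit and the count model was run as an alternative only. The members and lists were chosen with earlier results of these data known. Named genes were AKR1B10, the members, the E2F, DP and MuvB genes, up to 3 called genes at each end of every other list, CCND1, CDKN1A, CCNE2, CCNB1, CDK1 and the 2 nearest genes of each member. CCNE1, CDK2, CDK4, CDK6, CDC25A, MDM2, PRC1, CDKN1C, CCND2, AKTIP, ITFG2, PLK1 and MCM2 were named after their values were seen. Some genes that the rule names are not reported here. Alternatives were 2 other pseudocounts, no filter and a stricter filter, TPM and quantile scaling, an untrended fit, voom, a replicate block, 2 other call rules, protein-coding genes only and each library left out.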

Additional observations from a re-analysis of the deposited data

How the results depend on the processing

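MYBL2, FOXM1, LIN9, E2F8 and RBL1 stayed below 0 under every alternative run, and MYBL2 was called in all 18. The number of the 10 regulators called lower was 5, and it was 8 by the adjusted p alone and 1 (MYBL2) with a log2 fold change beyond 1, the same fit under other rules. RBL1 lost its call with a pseudocount of 1, at a log2 fold change of -0.50 just inside the threshold, and at a mean of at least 5 FPKM it was not tested. Without each library in turn the count stayed at 5. The difference in the share of E2F7 and E2F8 ran from -7.03 to -4.91 points with a library left out, and that of RBL1 from -4.02 to -3.57. From recovered reads, which are not scaled for length, the RBL1 difference was -3.33 points. The G1/S genes called lower were 15 at a mean of at least 5 FPKM, where fewer were tested, and the G2/M genes were 45 to 47 over the refits.

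The deviations of same-numbered libraries had correlations of -0.0155 to 0.00388, beside -0.0386 to 0.0363 for unlike numbers. No deviation shared by number was thus seen. Whether the libraries were prepared in numbered pairs cannot be told from these values. With the replicate block, 5 regulators were again called lower, and the share differences, -6.27 and -3.81 points, are the same with the block by construction. E2F1 and E2F2 had limma adjusted p = 0.107 and 0.0843 in the fit with the block.

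Over all genes tested, 980 were called lower and 766 higher, but 873 and 902 with TPM scaling and 852 and 976 by voom, so which direction held more calls turned with the scaling, while 5 regulators were lower and 0 higher in each of these fits.

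With 3 libraries a group, the exact test on a share cannot go below 0.10, and E2F7 at 71 to 89 reads allows no statement on changes within its interval.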
